A study of Mus musculus with 4 samples.

Results

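Genes of the p53 response and of mitochondrial apoptosis were examined in fetal mouse brain after maternal ethanol. The set lists 9 genes by symbol: the p53 gene Trp53, its targets Cdkn1a, Mdm2, Ccng1, Bax, Bbc3 and Pmaip1, the apoptosome gene Apaf1 and the survival gene Bcl2. Members were taken from probe sets whose annotation names a single gene, and 6 of the 9 had such a probe set, 1 each, among 19938 genes and 35557 probe sets on the array. Trp53 and Bax have no row in the probe annotation used here and were not analysed here. The probe set that carries Cdkn1a also carries the symbol 4930567H12Rik, so its values are given for the probe set and not for either gene. The groups were hippocampus after ethanol, hippocampus after PBS, forebrain after ethanol and forebrain after PBS, with 1 array each. All embryos were C57BL/6J, taken at embryonic day 18 from dams dosed into the stomach for 5 days, from embryonic day 8 to 12, with phosphate-buffered saline (PBS) or with 2.9 g/kg/day of ethanol as a 15% solution. Whether embryos were pooled, and from which litters, is not stated in the labels, so litter and treatment cannot be told apart.

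The p53 protein is a transcription factor that accumulates when DNA is damaged or cells are stressed, and it switches on genes that stop the cell cycle, repair DNA or start apoptosis. In the mitochondrial route, BH3-only proteins such as those of Bbc3 and Pmaip1 bind and block pro-survival proteins of the BCL2 family. This frees BAX and its relative BAK to open the outer mitochondrial membrane. Released cytochrome c then assembles with APAF1 into the apoptosome, which activates caspase-9. Apoptosis removes many cells from the developing brain, and Apaf1 and Bcl2 are expressed in embryonic neural tissue.

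Start-site windows in RefSeq (build GRCm38.p6) were searched for 8 members, and Pmaip1 was left out of the search. Of these 8, 2 had a match to the p53 response element consensus, a direct pair of 10-base elements, with at most 1 mismatch in 20 bases. Both are shown because they are known p53 response elements of these genes in the mouse. Capitals mark the matching 20 bases, and each line runs 5′ to 3′ on the strand of the gene.
Ccng1: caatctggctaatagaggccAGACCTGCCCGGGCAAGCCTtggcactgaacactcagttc
Cdkn1a: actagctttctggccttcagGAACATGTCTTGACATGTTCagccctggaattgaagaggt
The Ccng1 stretch lies on the minus strand at chr11:40755442-40755501, and its site begins 195 bases before the annotated start. The Cdkn1a stretch lies on the plus strand at chr17:29090908-29090967, in the upstream of its 2 windows, and its site begins 51 bases before that start. A match at this stringency occurred in 29 of 32851 windows of 300 bases, or 0.0883%, searched on both strands since the consensus reads the same on each. In the other 9 windows of the members searched the closest run had 3 to 7 mismatches, which says only that those letters are not in these windows. The stringency was chosen after these sequences had been seen.

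Values are log2 expression values as deposited, and each difference is that of 1 array from another, with no replicate check. A gene was kept when its mean over the 4 arrays was at least 7.11, the middle of such means over the whole array, which left 11013 genes. Mdm2, Ccng1, Apaf1 and Bcl2 were kept, and Bbc3 and Pmaip1 fell below this value. The array of hippocampus after ethanol stood apart from the rest. Its median over kept genes was 8.57, against 8.67 in hippocampus after PBS, 8.66 in forebrain after ethanol and 8.68 in forebrain after PBS. Between the hippocampus arrays the median difference was -0.08 over kept genes and 0.08 over the 8925 genes below the filter. Each member is therefore set beside genes of its own class. Markers of hippocampal fields did not go one way: 3 of 8 were higher in hippocampus than in forebrain after ethanol, and 3 of 8 after PBS. Their medians were -0.07 and -0.06, against -0.06 and 0.01 over all kept genes. Zbtb20 was higher in hippocampus (0.23 after ethanol, 0.35 after PBS) and Nr2f2 lower (-0.53 and -0.79). The share of all kept genes higher in hippocampus was not counted, so these counts do not settle the tissue label.

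The regulators of p53 activity come first. Mdm2, the ubiquitin ligase that degrades p53 and is itself a p53 target, read 8.90 in hippocampus after ethanol and 9.04 after PBS. In forebrain it read 8.98 after ethanol and 8.95 after PBS. All 4 arrays lay within 0.14 on the log2 scale, and the ethanol differences were -0.14 in hippocampus and 0.03 in forebrain. After each array was centred on its median the hippocampus difference was -0.04.

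Ccng1, which encodes cyclin G1 and carries the site shown above, read 9.70 in hippocampus after ethanol and 9.72 after PBS. Forebrain read 9.92 after ethanol and 9.80 after PBS, so both hippocampus arrays lay below both forebrain arrays. The ethanol difference was 0.11 in forebrain, inside the range of -0.16 to 0.14 that held the 5th to 95th percentile of kept genes. In hippocampus it was -0.02 as deposited, 0.07 with centred arrays and 0.04 after quantile normalization, so that its sign follows the scaling.

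Bbc3, which encodes the BH3-only protein PUMA, read 6.43 in hippocampus after ethanol and 6.77 after PBS. Forebrain read 6.78 after ethanol and 6.72 after PBS. The ethanol hippocampus array was the lowest, and the other arrays lay within 0.06 of each other. The hippocampus difference of -0.34 lies below -0.26, the 5th percentile of the genes under the filter, and it was -0.37 after quantile normalization. Of those genes 2.9% were lower by at least 0.32 on the log2 scale.

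Pmaip1, which encodes the BH3-only protein NOXA, stood the other way. It read 6.80 in hippocampus after ethanol and 6.45 after PBS, and 6.84 in forebrain after ethanol and 6.70 after PBS. Here the PBS hippocampus array was the lowest. The hippocampus difference was 0.35 and the forebrain difference 0.13, both inside the 5th to 95th percentile of genes under the filter, which ran up to 0.40 and 0.26. Higher by at least 0.32 in hippocampus were 10.2% of those genes.

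A single probe set is annotated to both 4930567H12Rik, a long non-coding RNA, and Cdkn1a, the gene of the cyclin-dependent kinase inhibitor p21. It read 7.54 in hippocampus after ethanol and 7.25 after PBS. In forebrain the reading was 7.69 after ethanol and 7.72 after PBS. Its ethanol differences were 0.29 in hippocampus, above the 95th percentile of 0.25 over kept genes, and -0.04 in forebrain. The PBS hippocampus array was again the lowest, and hippocampus minus forebrain was -0.15 after ethanol and -0.47 after PBS, where the 5th percentile was -0.31. Which of the annotated transcripts gives the signal was not tested.

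Bcl2, which keeps the outer mitochondrial membrane closed, had the widest range of the kept members. It read 8.46 in hippocampus after ethanol and 8.84 after PBS, against 8.78 in forebrain after ethanol and 8.79 after PBS. The ethanol hippocampus array alone was low, and the other arrays spanned 0.06. The difference of -0.38, or 1.30-fold lower with ethanol, lies below the 5th percentile of -0.34 over kept genes, and it was -0.28 with centred arrays and -0.31 after quantile normalization. In forebrain the difference was -0.01 as deposited and 0.01 with centred arrays, so that its sign follows the scaling.

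Apaf1, the scaffold of the apoptosome, read 9.05 in hippocampus after ethanol and 9.21 after PBS. It read 9.12 in forebrain after ethanol and 9.20 after PBS. Apaf1 was lower with ethanol in both tissues, at -0.16 in hippocampus and -0.08 in forebrain. Both Apaf1 differences lie inside the 5th to 95th percentile of kept genes. With centred arrays they became -0.06 in each tissue.

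**Figure D1:**
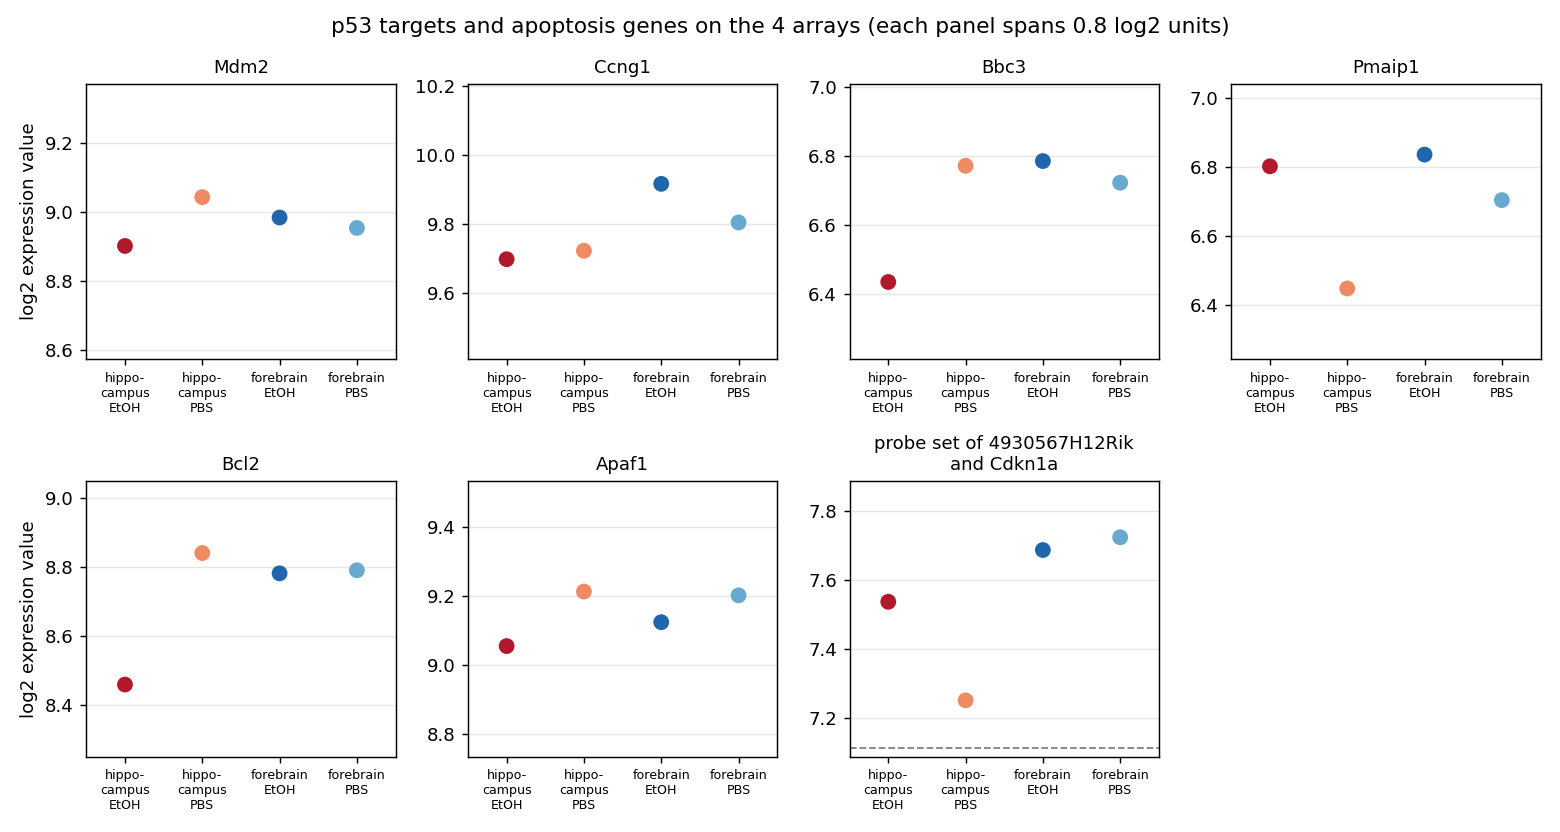
Log2 expression values of the 6 genes and of the probe set shared by 4930567H12Rik and Cdkn1a, 1 point per array, with hippocampus left of forebrain and ethanol (EtOH) left of PBS; the dashed line is the filter value of 7.11 where it falls in a panel. Bcl2 and Bbc3 read lowest in hippocampus after ethanol, at 8.46 and 6.43, while Pmaip1 and the shared probe set read lowest in hippocampus after PBS, at 6.45 and 7.25.

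At a threshold of 1.5-fold, 0 of the 4 kept members differed with ethanol in hippocampus, where 0.917% of kept genes did. In forebrain the count was also 0, against 0.0726% of kept genes. At a log2 difference of 0.32, Bcl2 was the only kept member past the threshold in hippocampus, and 5.95% of kept genes were lower by that much. All 4 kept members were lower in the ethanol hippocampus array as deposited, a direction shared by 69.3% of kept genes. With centred arrays or after quantile normalization 3 of 4 were lower. The median over all kept genes was then 0.02 and -0.02, so the 69.3% does not apply, and the matching share was not counted. No test of these counts is possible with 1 array in each group.

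A limma fit to all 4 arrays tested ethanol with tissue as an additive term. A gene's own error was the difference between the tissues' responses (1 residual degree of freedom). The eBayes step moderated this error toward a trend over all fitted genes, so each SE and p-value also draws on other genes. Bcl2 had a log2 difference of -0.20 (SE 0.102, limma, Benjamini-Hochberg adjusted p = 0.541), and Apaf1 had -0.12 (SE 0.0730, adjusted p = 0.585). Mdm2 had -0.06 (adjusted p = 0.807) and Ccng1 0.04 (adjusted p = 0.827). Without the filter, Pmaip1 had 0.24 (SE 0.102, unadjusted p = 0.0478, adjusted p = 0.618) and was higher with ethanol in both tissues, while Bbc3 had -0.14 (adjusted p = 0.737). Unfiltered, 3.86% of all 19938 genes were higher at an unadjusted p of 0.05. No kept gene of the array passed an adjusted p of 0.05 (0% called), although 9.76% passed without adjustment. A p above the threshold in a fit of this size does not show that these genes were equal.

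The arrays also allow a comparison of hippocampus with forebrain. No kept member was 1.5-fold apart between tissues after ethanol, where 0.69% of kept genes were, or after PBS, where 1.28% were. Bcl2 differed by -0.32 after ethanol and by 0.05 after PBS, so its tissue difference rests on the ethanol hippocampus array. Ccng1 was lower in hippocampus in both treatments, at -0.22 after ethanol and -0.08 after PBS. In the limma fit its tissue difference was -0.15 (SE 0.0689, adjusted p = 0.362), and 1.13% of kept genes were called for tissue. Mdm2 (-0.08 after ethanol, 0.09 after PBS) and Apaf1 (-0.07 and 0.01) had opposite signs in the treatments as deposited. With centred arrays both differences were above 0 for each gene (0.01 and 0.10 for Mdm2, 0.02 and 0.02 for Apaf1). After quantile normalization the signs were opposite, at -0.03 and 0.07 for Mdm2 and at 0.003 and -0.006 for Apaf1, so that they follow the scaling. Below the filter, Pmaip1 differed by -0.03 after ethanol and -0.26 after PBS, and Bbc3 differed by -0.35 and 0.05.

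**Figure D2:**
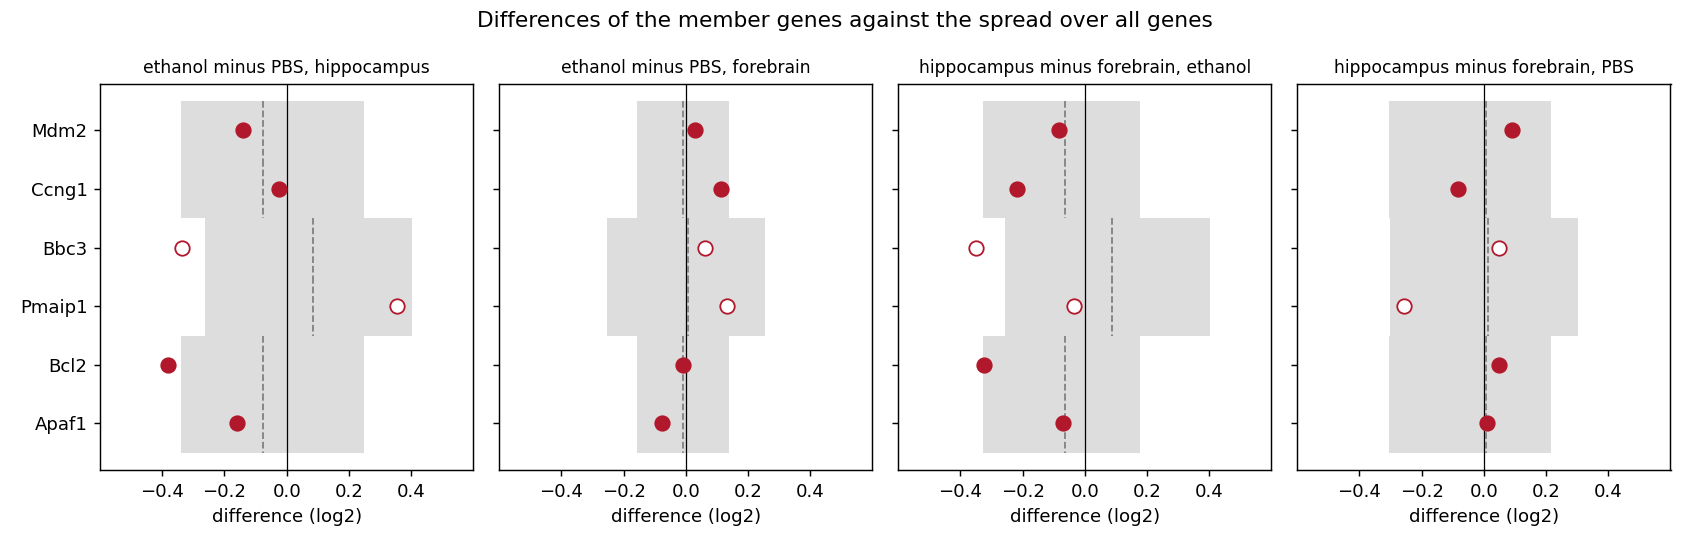
Log2 differences of the 6 genes (horizontal axis) for ethanol minus PBS in hippocampus and in forebrain and for hippocampus minus forebrain after ethanol and after PBS; filled points passed the filter, open points did not, grey bands span the 5th to 95th percentile of kept genes (filled rows) or of genes below the filter (open rows), and dashed lines mark their medians. Bcl2 (-0.38) and Bbc3 (-0.34) lie below their bands in the hippocampus panel, and in the forebrain panel every member lies within its band.

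Several lists of cell type markers also differed between the hippocampus arrays. Of all kept genes 69.3% were lower in the ethanol hippocampus array (median -0.08), which is the background for these counts. Of 9 markers of excitatory cortical neurons, all kept, 8 were lower in the ethanol array (median -0.35), and their summed linear level was 7384 after ethanol and 9471 after PBS. In forebrain that sum was 7711 after ethanol and 8258 after PBS. Of 11 markers of cycling cells measured, 10 were lower in the ethanol hippocampus array (median -0.18), with sums of 4824 and 5587. Striatal projection neuron markers were higher for all 9 that were measured (median 0.46), with sums of 5975 after ethanol and 4387 after PBS. Meningeal fibroblast markers were higher for 6 of 7 kept genes, with sums over 9 genes of 2342 and 1851, Lum and Ogn being below the filter. Choroid plexus markers were lower for 6 of 6 kept genes (median -0.34) and GABAergic interneuron markers higher for 8 of 10 (median 0.30). Radial glia markers were lower for 6 of 10, a smaller share than over all kept genes (median -0.15), with sums of 10971 after ethanol and 11024 after PBS. Sums of microglial markers were 864.9 and 863.2, with 4 of 7 below the filter. The part of these markers in the differences of Bcl2 and Bbc3 was not tested. In tissue RNA, fewer cells of a type and less RNA per cell cannot be told apart. The 3 measured Y-linked genes summed to 760 in hippocampus after ethanol and 946 after PBS, and to 968 in forebrain after ethanol and 565 after PBS.

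The wider pathway was read from 6 lists of 86 genes, of which 82 had a probe set of their own and 58 were kept. In hippocampus 44 of the 58 were lower after ethanol and 14 higher, with a median of -0.12 against -0.08 for all kept genes, of which 69.3% were lower. That share of 69.3% is the background for each hippocampus count of the lists. In forebrain 36 were lower and 22 higher, with a median of -0.05 against -0.01, where 53.8% of kept genes were lower. None of the 58 was 1.5-fold apart in either tissue, and none passed limma for ethanol (lowest adjusted p = 0.510). With centred arrays the hippocampus median was -0.02, against 0.02 for all kept genes.

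Regulators of p53 and DNA damage kinases were lower in hippocampus for 10 of 12 kept genes (median -0.10, and -0.0033 with centred arrays). Atm, the kinase that responds to DNA double-strand breaks, read 8.56 after ethanol and 9.01 after PBS in hippocampus, and 8.75 and 8.78 in forebrain. Its difference of -0.45 was the largest of the 58 in size. Chek1, a kinase of the replication checkpoint, differed by -0.27 and Trp53bp2, a p53-binding protein, by -0.24. In forebrain this list was even, with 6 higher and 6 lower, and its largest differences were -0.07 for the p53 inhibitor gene Mdm4, -0.06 for Trp53bp2 and -0.05 for the phosphatase gene Ppm1d.

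Targets of p53 in arrest, repair and metabolism were lower in hippocampus for 15 of 20 kept genes, near the share over all kept genes (median -0.13, and -0.03 with centred arrays). Trp53inp1, a p53-induced stress protein gene, read 9.76 after ethanol and 10.16 after PBS in hippocampus, a difference of -0.40, with -0.12 in forebrain. Ei24, a p53-induced gene of the endoplasmic reticulum, differed by -0.29 and Zmat3, an RNA-binding p53 target, by -0.27. The list did not move one way: Phlda3, a p53-induced inhibitor of Akt, stood at 0.22 in hippocampus and -0.15 in forebrain. In forebrain 12 were lower and 8 higher, with the growth arrest gene Gadd45g at -0.19 and the sestrin gene Sesn3 at 0.19.

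Of the death receptor route only 3 of 12 genes were kept, all lower in both tissues, where 53.8% of all kept genes were lower in forebrain. The hippocampus median of these 3 was -0.18, and over the 11 genes measured, without the filter, it was -0.08. Cflar, an inhibitor of caspase-8, differed by -0.28 in hippocampus and -0.14 in forebrain, the TNF receptor gene Tnfrsf1a by -0.18 and -0.06, and the pro-apoptotic gene Siva1 by -0.15 and -0.25.

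Relatives of BCL2 either protect mitochondria or open them. In hippocampus the 3 kept pro-survival relatives were lower, with Bcl2l1 (BCL-XL) at -0.20, Mcl1 at -0.18 and Bcl2l2 at -0.04. The 9 kept pro-death relatives had 5 higher and 4 lower, with a median of 0.04, led by the BH3-only genes Bid at 0.18 and Hrk at 0.16, while Bnip3, a mitophagy receptor gene, stood at -0.20. Whether these lists differ was not tested. In forebrain the pro-survival genes differed by -0.08 (Mcl1), -0.05 (Bcl2l1) and -0.01 (Bcl2l2), and the pro-death genes had 5 higher and 4 lower, with the BIM gene Bcl2l11 at -0.10, Bad at 0.09 and Bak1 at -0.08.

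Downstream, 9 of 11 kept genes of the apoptosome, the caspases and their inhibitors were lower in hippocampus, where 69.3% of all kept genes were (median -0.17, and -0.07 with centred arrays). Diablo, whose mitochondrial protein relieves caspase inhibition, read 7.55 after ethanol and 7.87 after PBS, a difference of -0.33, against 0.07 in forebrain. Casp6, an executioner caspase gene, stood at -0.30 in hippocampus and -0.23 in forebrain, and the mitochondrial protease gene Htra2 at -0.29 and -0.10. Cycs, which encodes cytochrome c, differed by 0.10 in forebrain and -0.07 in hippocampus.

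**Figure D3:**
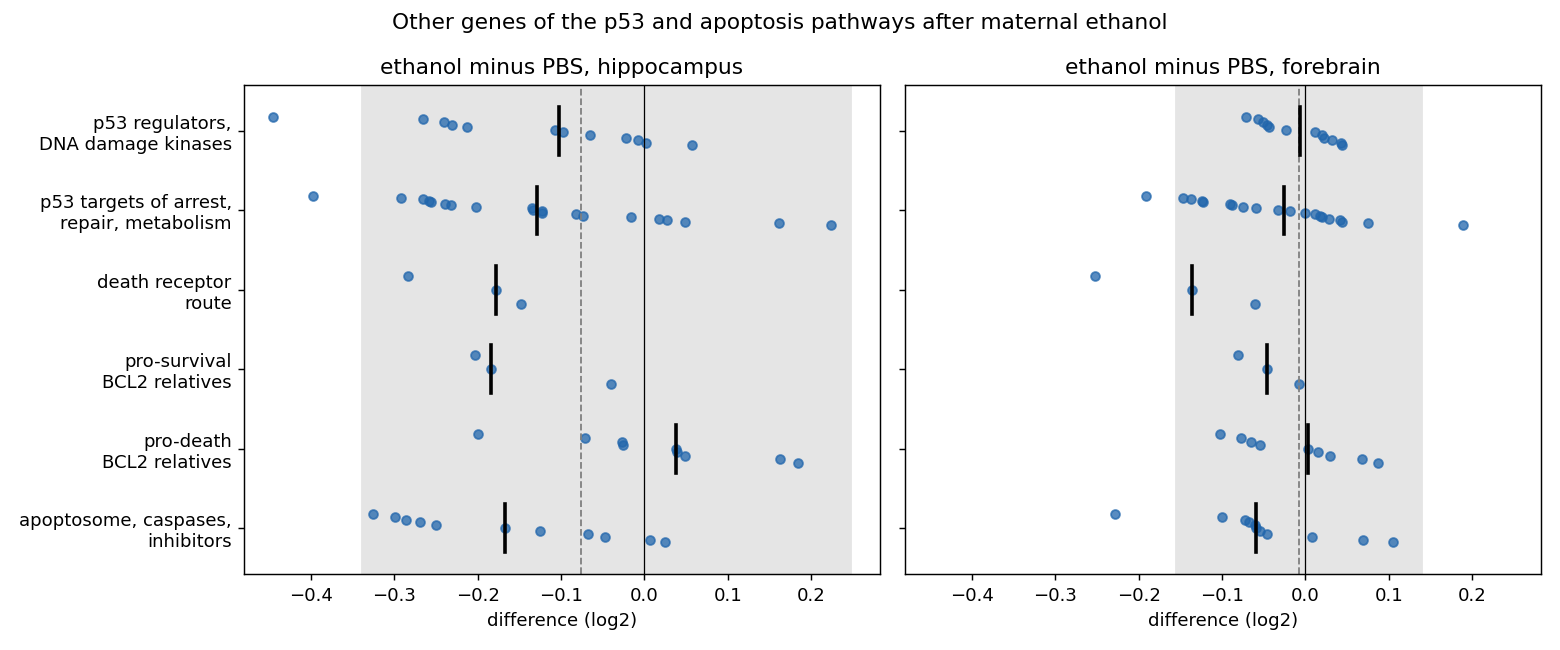
Log2 difference of ethanol minus PBS (horizontal axis) in hippocampus, left, and forebrain, right, for each kept gene of the 6 pathway lists; bars are list medians, grey bands span the 5th to 95th percentile of all kept genes and dashed lines mark their median. In hippocampus Atm (-0.45) and Trp53inp1 (-0.40) lie below the band, and the pro-death relatives are the only list with a median above 0, at 0.04.

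Bcl2 was set against the other 11012 kept genes for likeness of profile over the 4 arrays, each profile centred on its own mean. The closest named genes were Dgat1, a triglyceride synthesis enzyme, at a Euclidean distance of 0.0189 on the log2 scale, Vkorc1, the vitamin K epoxide reductase subunit, at 0.0196, and Slc7a4 at 0.0249. In these genes too the ethanol hippocampus array was low, with ethanol differences of -0.38, -0.37 and -0.35. With 4 arrays the likeness rests mainly on that array.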

How the data were processed

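RNA from 4 samples, 1 per tissue and treatment, was measured on Affymetrix mouse arrays; the RNA had been isolated with Trizol and 6 ug of it turned into biotinylated cRNA, per the labels' protocols. The authors deposited log2 values: the scale was read from the values (1.58 to 13.96), and the submitters' processing notes name MAS5, with version, background correction and scaling not given in the sources used here. Probe sets were named by the platform annotation (21789 with 1 symbol, 1621 with several, 12147 with none). Of the probe sets with 1 symbol, 21698 had a gene identifier found in RefSeq (GRCm38.p6), with 0 symbols changed. Where a gene had several probe sets, that of the highest mean stood for it, and means under 7.11 were filtered out. limma 3.58.1 (R 4.3.3) was fitted to all kept genes with treatment and tissue, a trended eBayes and Benjamini-Hochberg adjustment at 0.05. Tables and figures used Python 3.11.15 with pandas 2.3.3, numpy 2.4.6 and matplotlib 3.10.9. Values were simulated for the ethanol comparison over both tissues (11013 genes, 200 changed). On these, limma recovered 100% of 2-fold and 100% of 1.5-fold changes and called 25 unchanged genes. Recovery of a difference seen in hippocampus alone, such as that of Bcl2 (-0.38, with -0.01 in forebrain), was not tested.

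The members and lists were chosen with earlier results of these data known. The genes named are the members, the kept genes of each list with the 3 largest ethanol differences in each tissue (none reached 1.5-fold), and the 3 nearest profiles to the kept member of widest range. A profile search for Trp53 was also laid down and could not be made. Genes named outside this rule, among them all markers, serve as context. Precision is limited by the number of arrays, and the p-values measure only the spread between these arrays. Alternatives were array centring, quantile normalization, other filters, probe set averaging, other fold thresholds and eBayes without a trend.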

Additional observations from a re-analysis of the deposited data

Results flagged for a closer look

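For 3 of the 6 members the ethanol difference had opposite signs in hippocampus and forebrain, each from a single pair of arrays, and the difference between tissues was not tested. Of all kept genes, 69.3% were lower with ethanol in hippocampus and 53.8% in forebrain. The share of genes with opposite signs was not counted, so 3 of 6 is not read as a trait of the members. Bbc3 differed by -0.34 in hippocampus and 0.06 in forebrain, which are -0.40 apart on the log2 scale. Mdm2 differed by -0.14 and 0.03, which are -0.17 apart. Ccng1 differed by -0.02 and 0.11, which are -0.14 apart, and both its differences were above 0 with centred arrays and after quantile normalization.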

How the results depend on the processing

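At 1.5-fold, 0 kept members were called for ethanol in either tissue or between tissues, and 0 pathway genes in hippocampus, under array centring, quantile normalization, both other filters, probe set averaging and the 2-fold threshold. At a log2 difference of 0.32 the counts became 1 member for ethanol in hippocampus (Bcl2) and 0 in forebrain. Between tissues the count was 1, again Bcl2 (-0.32 after ethanol), which rests on the same ethanol hippocampus array. Of the pathway genes 3 of 58 passed in hippocampus, all lower (Atm, Trp53inp1 and Diablo), where 5.95% of kept genes were lower by that much. The shares at this threshold for forebrain and between tissues are not given here. The limma calls for ethanol, 0 of 11013 kept genes as reported, were 2 with centred arrays and 14 after quantile normalization, both of 11013. They were 7 of 5549 genes with the 75th percentile filter. Calls for tissue, 124 of 11013 as reported, were 66 with centred arrays, 416 after quantile normalization and 27 without a trend, each of 11013. Without a filter the tissue calls were 37 of 19938 genes. The cause of these shifts was not tested. No member was called in any of these fits: the adjusted p for ethanol ranged from 0.481 to 0.627 for Bcl2, 0.583 to 0.733 for Apaf1, 0.801 to 0.986 for Mdm2, 0.520 to 0.860 for Ccng1, 0.496 to 0.618 for Pmaip1 and 0.696 to 0.737 for Bbc3. The Bcl2 difference in hippocampus ranged from -0.38 to -0.28 over all settings. Centring brought 6 of the 7 hippocampus list medians, all lists together included, nearer to 0 and raised that of pro-death relatives to 0.14. It shifts every hippocampus ethanol difference by the same amount, so these moves tell nothing about the lists themselves. Quantile normalization with no filter was added after seeing the data, since Bbc3 and Pmaip1 had no other value under a second scaling. The limma fit compares treatments within tissue, and no block by replicate number was fitted because each group holds 1 array. Readings under 7.11, those of Bbc3 and Pmaip1 among them, lie in the dimmer part of the array, and signal over background is not given in the values used here.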
